A study of Mus musculus with 4 samples.

Results

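The immunity-related GTPases (IRG proteins) are a mouse family of interferon-inducible GTPases, and 6 of its genes, Irgm1, Irgm2, Igtp, Iigp1, Tgtp1 and Tgtp2, were followed across the leukocytes of B16-F10 melanoma tumours. The 6 were chosen by gene symbol, and each had a row among the 32285 genes of the count matrices. B16-F10 is a mouse melanoma line that grows when implanted. On days 8 and 11 each tumour was injected with CD40 antibody or with dilution buffer, and each mouse was given PD1 antibody or IgG by vein. Tumours were harvested on day 14. The 4 groups were control, CD40 (CD40 antibody), PD1 (PD1 antibody) and combination (both), with buffer and IgG as the stand-ins for the absent antibodies; which stand-in each group received is not labelled, nor are the strain, sex and age of the mice. Live CD45+ cells of 6 mice were pooled into 1 droplet 5′ single-cell RNA library per group, so that nothing measures the spread between animals. The labels give the cell type as melanoma, whereas the sort was for leukocytes, and only 15, 16, 19 and 6 kept cells passed a gate on melanoma genes. Values given as 4 in a row are in the order control, CD40, PD1, combination.

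On the GRCm38 build with GENCODE vM21 genes, 5 of the 6 genes lie on chromosome 11 in a pair of groups. Irgm1 (48861968 to 48871683, minus strand), Tgtp1 (48985327 to 48994172, minus) and Tgtp2 (49057194 to 49064206, minus) form one group, and Igtp (58199556 to 58207591, plus) and Irgm2 (58199618 to 58222782, plus) the other. Iigp1 lies on chromosome 18 (60376027 to 60392634, plus strand). All 6 are annotated as protein-coding. Igtp and Irgm2 overlap by 7974 bases on the same strand, and Tgtp1 overlaps Gm12185 by 6900. Of all 90-base stretches of their transcripts, 74.8% in Tgtp1 and 78.6% in Tgtp2 also occurred in another gene, mostly in each other, so the division of reads between Tgtp1 and Tgtp2 is uncertain. The share was 6.13% in Igtp, 3.57% in Irgm2 and 0% in Irgm1 and Iigp1.

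IRG genes are switched on mainly by interferon gamma, and also by type I interferon. Irgm1, Irgm2 and Igtp (also called Irgm3) encode regulators that sit on the cell's own membranes and hold the other family members inactive there. Iigp1 (also called Irga6) and the near-identical pair Tgtp1 and Tgtp2 (Irgb6) encode effectors that load onto the vacuoles of intracellular parasites and bacteria and break them open. In macrophages and monocytes these genes are known as part of the response to interferon gamma released by T cells and NK cells.

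The promoters of the chromosome 11 genes are shown because the family is defined by its interferon response, and the letters that interferon-activated factors are known to read can be seen in them. The reference promoter table (RefSeq, GRCm38.p6, 250 bases before to 50 after a start) held 5 of the 6 genes, all but Iigp1. Windows of 70 bases are printed in the direction of transcription. Capitals mark matches to TTCNNNGAA, the gamma-activated site (GAS), and to the core of the interferon-stimulated response element (ISRE), which is GAAA, any 2 bases and GAAA again, searched on both strands. No GAS match overlapped an ISRE match in these windows, and the capitals of Irgm1 are 2 overlapping ISRE matches.
Irgm1, chr11:48871411-48871480, minus strand: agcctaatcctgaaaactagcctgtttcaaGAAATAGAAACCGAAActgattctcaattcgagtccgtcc
Tgtp1, chr11:48992284-48992353, minus strand: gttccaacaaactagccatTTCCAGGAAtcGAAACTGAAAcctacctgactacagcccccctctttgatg
Tgtp2, chr11:49064243-49064312, minus strand: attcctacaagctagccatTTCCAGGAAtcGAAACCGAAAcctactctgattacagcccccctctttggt
Igtp, chr11:58199492-58199561, plus strand: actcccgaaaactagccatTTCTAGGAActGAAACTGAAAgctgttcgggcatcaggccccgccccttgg
Irgm2, chr11:58214883-58214952, plus strand: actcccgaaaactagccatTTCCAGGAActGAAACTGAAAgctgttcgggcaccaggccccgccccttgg

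The ISRE letters were present in 5 of 5 of these promoters and the GAS letters in 4 of 5, all but Irgm1. Among all 32851 promoters of the table, 3.44% held the ISRE letters, 8.3% the GAS letters and 0.454% both. In the 4 genes with both, the GAS match came first and the ISRE match followed it after 2 further bases. The GAS match began 45 bases before the start of transcription in Igtp, 75 in Irgm2, 81 in Tgtp2 and 88 in Tgtp1. These are RefSeq starts, and those of Irgm2 and Tgtp2 were not found in a GENCODE transcript. That of Irgm2 lies inside the GENCODE gene span given above, not at its first base. Over the whole 300-base promoters, Igtp and Irgm2 were 72.8% identical and Tgtp1 and Tgtp2 67.0%, while other pairs were 43.2 to 50.5% identical. A match describes the letters and does not show that a factor bound there.

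The libraries held 8132 to 10158 barcodes and 117735875 to 164755549 unique molecular identifiers (UMIs, 1 per captured RNA molecule), and pairs of libraries shared 94 to 144 barcodes. Cells were sorted into 13 classes by their UMIs of defining markers, and 17.1 to 20.6% of kept cells stayed ungated. Comparisons were made in the 5 classes that no library held fewer than 100 cells of: mononuclear phagocytes, neutrophils, NK cells, CD8 T cells and regulatory T cells. Levels are UMIs of a gene per 1000000 UMIs of its class (CPM), and log2 ratios are of CPM. Ranges in brackets are exact 95% intervals for counting error only and say nothing about differences between mice. With 1 library per group there is no test. A gene was called higher or lower when its CPM differed 1.5-fold or more and it had at least 50 UMIs over the 4 libraries of the class. The macrophage genes C1qa, C1qb and C1qc stood in the compared lymphocytes at 0.416 to 1.29% of their level over all kept cells. The gates of these lymphocytes left out cells with many UMIs of macrophage genes, so this cannot show how much free RNA there was.

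Summed over all barcodes, the 6 genes made up 326.7 CPM in control, 491.4 in CD40, 679.5 in PD1 and 785.7 in the combination. This order held in mononuclear phagocytes (310.5, 572.8, 779.5 and 1057.0 CPM in the same order of libraries). In 3 classes the CD40 library stood above the PD1 library instead: neutrophils (221.9, 981.1, 499.7 and 1708.4), CD8 T cells (149.7, 242.2, 190.5 and 330.4) and regulatory T cells (821.4, 928.3, 888.7 and 1088.8). NK cells had lower sums in the CD40 (125.2) and combination (141.5) libraries than in the control (211.8) and PD1 (216.1) libraries, a direction that turned when UMIs were counted per cell.

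**Figure D1:**
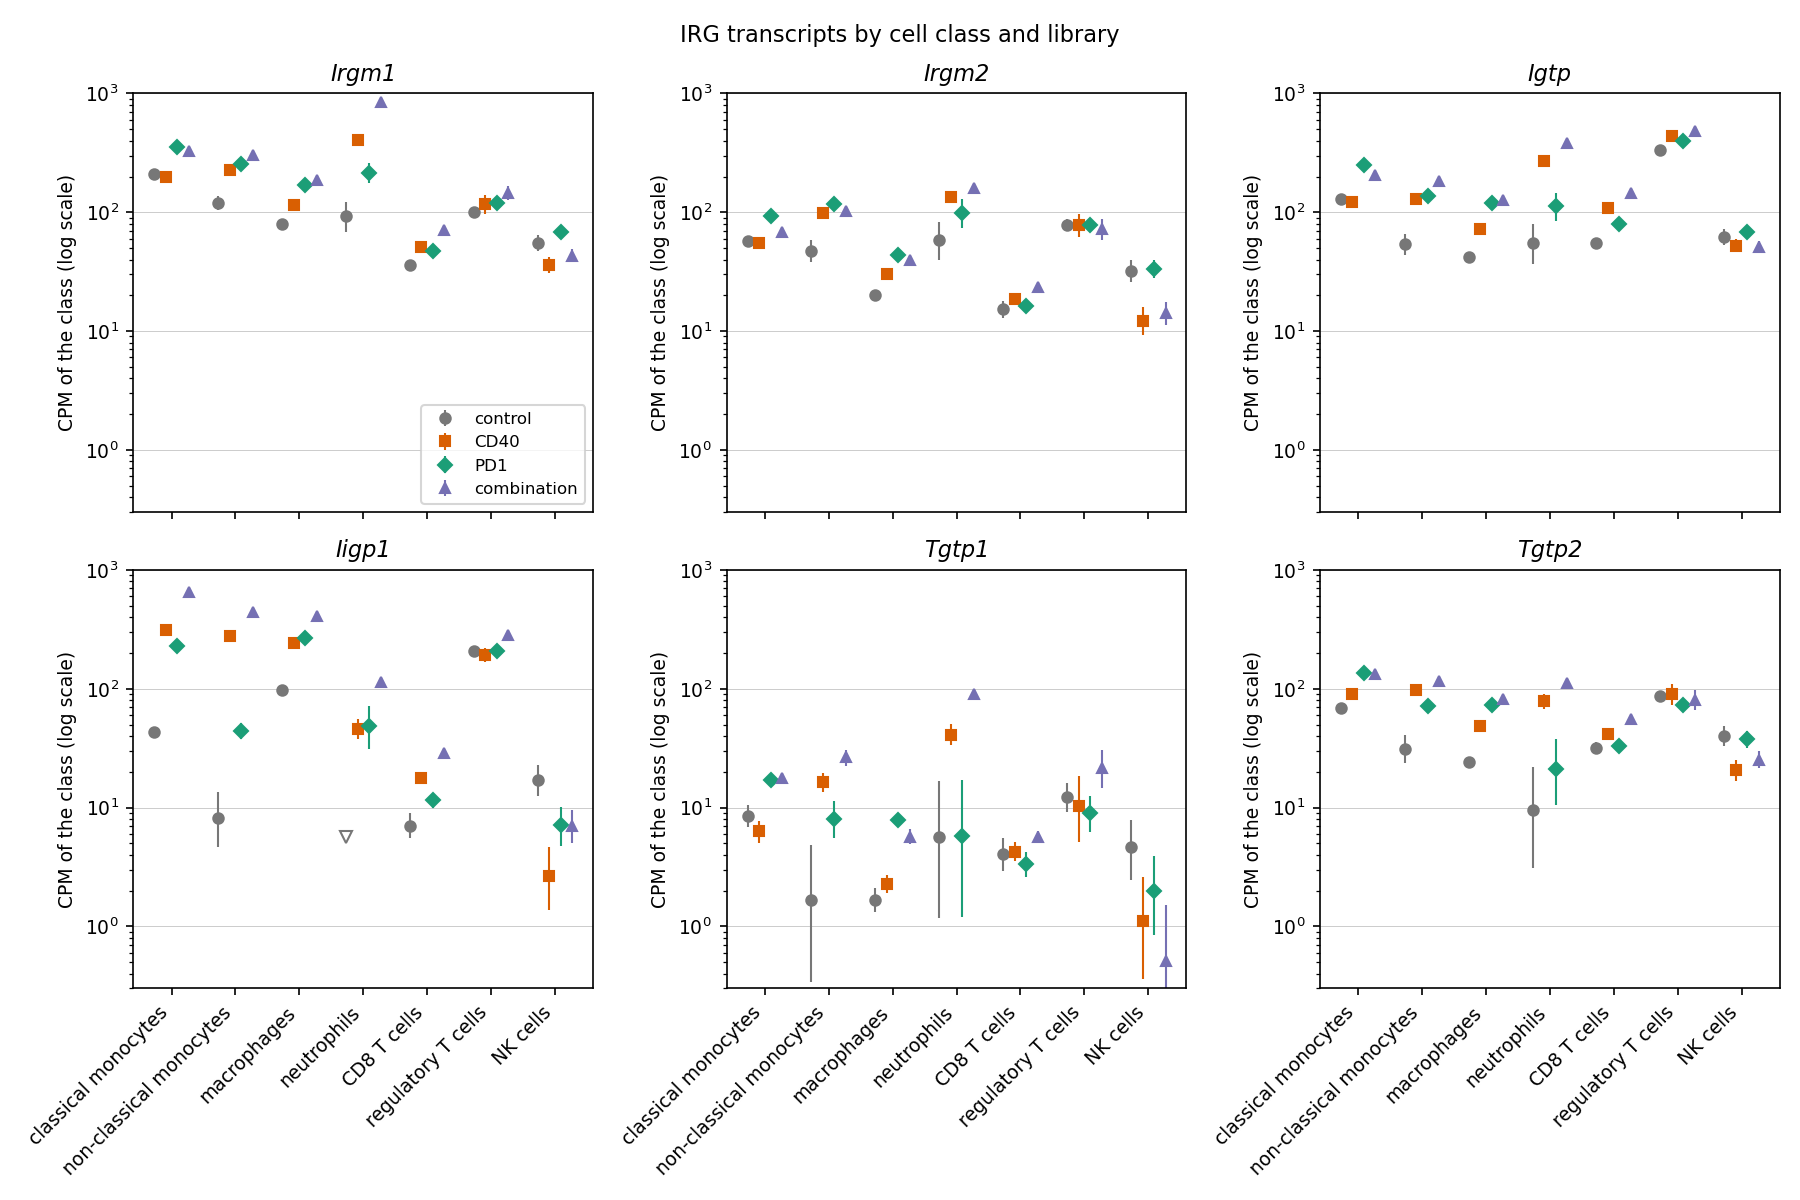
CPM of each IRG gene (log scale) in 7 cell classes, with 1 point per library and bars for exact 95% Poisson intervals. An open downward triangle marks fewer than 3 UMIs and is drawn at the level of 3 UMIs. As drawn, Iigp1 spreads furthest between libraries in non-classical monocytes (8.24 to 439 CPM), and regulatory T cells hold Igtp between 334 and 484 CPM.

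In mononuclear phagocytes, the PD1 library was higher than the control for every one of the 6 genes. In CPM, the libraries with CD40 antibody differed from their counterparts mainly in Iigp1. Counted per cell, all 6 genes were higher with CD40 antibody, Iigp1 by the most. Mononuclear phagocytes are the monocytes and macrophages, and there were 3394, 3586, 4743 and 3032 of them. Between PD1 and control, 6 of 6 members were called higher, against 6.09% of 14280 genes, with a median log2 ratio of 1.40 where the median of all genes was -0.06. Between CD40 and control, 2 of 6 were called higher (Iigp1 and Tgtp2), against 7.02% of 14286 genes, with a median of 0.51. Between combination and PD1, which share no library with CD40 and control, only Iigp1 of the 6 was called higher, against 6.63% of genes, with a median of 0.12. Between combination and CD40, 5 of 6 were called higher, all but Irgm2, against 5.39% of genes. Both comparisons with the control share that library, as both with the combination share theirs.

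Among the regulators, Irgm1 had 106 CPM in control, 136 in CD40, 228 in PD1 and 243 in combination phagocytes. Its log2 ratio was 1.10 (1.06 to 1.14) for PD1 against control, 0.35 (0.31 to 0.39) for CD40 against control and 0.09 (0.06 to 0.12) for combination against PD1. In CPM the 2 libraries with PD1 antibody were thus high and the 2 without it low, and the differences that went with CD40 antibody were smaller. Igtp had the same order (60.3, 83.9, 155 and 159 CPM). Irgm2 had 28.6, 39.1, 61.8 and 54.9 CPM, with the combination below the PD1 library.

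Among the effectors, Iigp1 had 78.8 CPM in control, 252 in CD40, 234 in PD1 and 488 in combination phagocytes. Both single-antibody libraries stood well above the control and close together, and the combination was higher than either. The log2 ratio was 1.68 (1.63 to 1.72) for CD40 against control, 1.06 (1.04 to 1.09) for combination against PD1 and 1.57 (1.52 to 1.61) for PD1 against control. Tgtp2 had 33.6, 57.8, 89.8 and 100.1 CPM, and Tgtp1, the least counted member, 2.83, 4.13, 10.7 and 12. Both followed the order of Irgm1 and Igtp.

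Depth moved with the CD40 antibody in this class, with median UMIs of 14554, 20098, 13595 and 18600.5 per cell. Counted per cell without scaling, the 6 genes had 5.85, 14.7, 13 and 23.7 UMIs per phagocyte, so that the CD40 library then stood above the PD1 library. For CD40 against control the log2 ratios per cell were 0.80 (Irgm1), 0.90 (Irgm2), 0.93 (Igtp), 2.13 (Iigp1), 0.99 (Tgtp1) and 1.23 (Tgtp2). All of these were past 1.5-fold. For combination against PD1 they were 0.52, 0.26, 0.46, 1.49, 0.59 and 0.59 in that order of genes. Irgm1 had 2.0, 3.49, 3.8 and 5.45 UMIs per cell, so its CD40 level lay near its PD1 level. The part of depth in these differences was not tested.

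The lists of other interferon response genes showed which members of the wider response moved beside the IRG genes. Of 20 genes led by interferon gamma, such as Cxcl9, a T cell-attracting chemokine, and the guanylate-binding proteins, 19 were 1.5-fold or more higher in PD1 than in control phagocytes (median log2 1.34). In CD40 against control 12 of these 20 were higher and none lower (median 0.68), with Serpina3g, a serine protease inhibitor, highest at 1.5. Of 17 type I interferon-led genes, 1 was higher and 6 lower in CD40 against control (median -0.56), against 7.02 and 7.08% of all genes. Rsad2, an antiviral enzyme, was lowest at -1.05. In PD1 against control, 5 of these 17 were higher and none lower (median 0.37). In combination against PD1 the medians of the gamma-led and type I-led lists were 0.06 and -0.21. None of 11 autophagy genes, whose proteins help place IRG proteins on membranes, passed 1.5-fold in any of these 3 comparisons. The receptor gene Ifngr1 had 175 to 186 CPM in the phagocytes of all 4 libraries.

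Within the phagocytes, the difference between Iigp1 and the chromosome 11 genes was wider in both kinds of monocyte than in macrophages. Classical monocytes, the Ly6c2-high cells that enter from blood, numbered 849, 828, 1401 and 1025. Their Iigp1 level was 43.5 CPM in control, 312 in CD40, 231 in PD1 and 649.9 in combination cells. The CD40 antibody went with more Iigp1 both without PD1 antibody (log2 2.84, 2.70 to 2.98) and with it (1.49, 1.44 to 1.54). In the same cells Irgm1 had 210.1, 199, 355 and 327 CPM, with log2 ratios of -0.08 (-0.16 to 0.00) and -0.12 (-0.17 to -0.07). The ratios of Irgm2 were -0.08 and -0.44, and those of Igtp -0.09 and -0.25. Iigp1 was the only member called in either comparison, 1 of 6, where 7.16% (CD40 against control) and 4.79% (combination against PD1) of 11423 genes were called higher. For PD1 against control all 6 were called higher in these cells, against 5.11% of genes. Per cell and unscaled, Irgm1, Irgm2 and Igtp were also above the control in the CD40 library, by log2 0.35 to 0.37, and Iigp1 by 3.29. The type I interferon-led list was lower in CD40 against control classical monocytes (9 of 17 called lower, none higher, median -0.86), and the interferon gamma-led list had 5 of 19 called higher (median 0.25).

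Non-classical monocytes, the vessel-patrolling cells marked by Ace and Treml4, numbered 254, 659, 519 and 522. Iigp1 was low in them without CD40 antibody: the control had 15 UMIs (8.24 CPM, 4.61 to 13.6) and the PD1 library 181 (44.2 CPM, 38.0 to 51.1). The CD40 library had 1904 UMIs (279 CPM) and the combination 2662 (439 CPM). The log2 ratio was 5.08 (4.36 to 5.92) for CD40 against control and 3.31 (3.10 to 3.54) for combination against PD1. Cells with at least 1 Iigp1 UMI made up 1.97% (0.642 to 4.53) in control, 62.1% (58.2 to 65.8) in CD40, 8.67% (6.39 to 11.4) in PD1 and 73.6% (69.6 to 77.3) in combination. With every cell thinned to 2000 UMIs the shares were 1.09, 31.6, 4.26 and 42.6%, after leaving out 3 to 8 shallower cells per library. In NK cells, the compared lymphocytes with the lowest Iigp1 level in the CD40 library, the share was 4.37, 2.88, 4.52 and 5.86% unthinned and 2.02, 0.612, 1.30 and 1.22% thinned. The control share in non-classical monocytes was no higher than in control NK cells, and the CD40 and combination shares were far above those of NK cells. Because NK cells were picked for their low level in the CD40 library, the contrast in that library was partly fixed in advance. Unthinned, the CD40 and combination shares were 14.8 and 20.5% in CD8 T cells. In regulatory T cells they were 47.2 and 65.7%, much nearer those of the monocytes.

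The other 5 genes were also higher in CD40 than in control non-classical monocytes, so that 6 of 6 were called, against 10.4% of 9799 genes. Irgm1 had 119.8 CPM in control, 227 in CD40, 255 in PD1 and 304 in combination cells. Tgtp2 had 31.3, 98.2, 71.0 and 116 CPM. In combination against PD1, 3 of 6 were called higher (Iigp1, Tgtp1 and Tgtp2, the effectors), against 6.16% of genes, while Irgm1 (0.25), Irgm2 (-0.19) and Igtp (0.41) were not. Counted per cell, the log2 ratios of these regulators were 0.81, 0.37 and 0.96. For PD1 against control 6 of 6 were called, against 8.67%. T cell markers summed to 5.49 to 17.0 CPM and NK cell markers to 6.04 to 14.8 CPM in these cells, with 5 to 7 of the 7 markers of each list detected.

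Macrophages, gated on the complement genes C1qa, C1qb and C1qc, had Iigp1 at 98.2 CPM in control, 244 in CD40, 269 in PD1 and 413 in combination cells. Their control level was thus above that of both kinds of monocyte. Between CD40 and control 3 of 6 were called higher (Igtp, Iigp1 and Tgtp2), against 6.39% of 13441 genes, and between combination and PD1 only Iigp1, against 6.7% of genes. For PD1 against control 6 of 6 were called, against 5.95%. Macrophages were the deepest of the 3 phagocyte gates, with a median of 22671, 35640.5, 19874.5 and 31445 UMIs, deeper with CD40 antibody. Counted per cell, CD40 against control was log2 1.08 for Irgm1, 1.12 for Irgm2, 1.32 for Igtp, 1.86 for Iigp1, 0.98 for Tgtp1 and 1.54 for Tgtp2. All 6 were then past 1.5-fold. For combination against PD1 the values per cell were 0.66, 0.40, 0.60, 1.15, 0.06 and 0.69 in that order of genes.

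**Figure D2:**
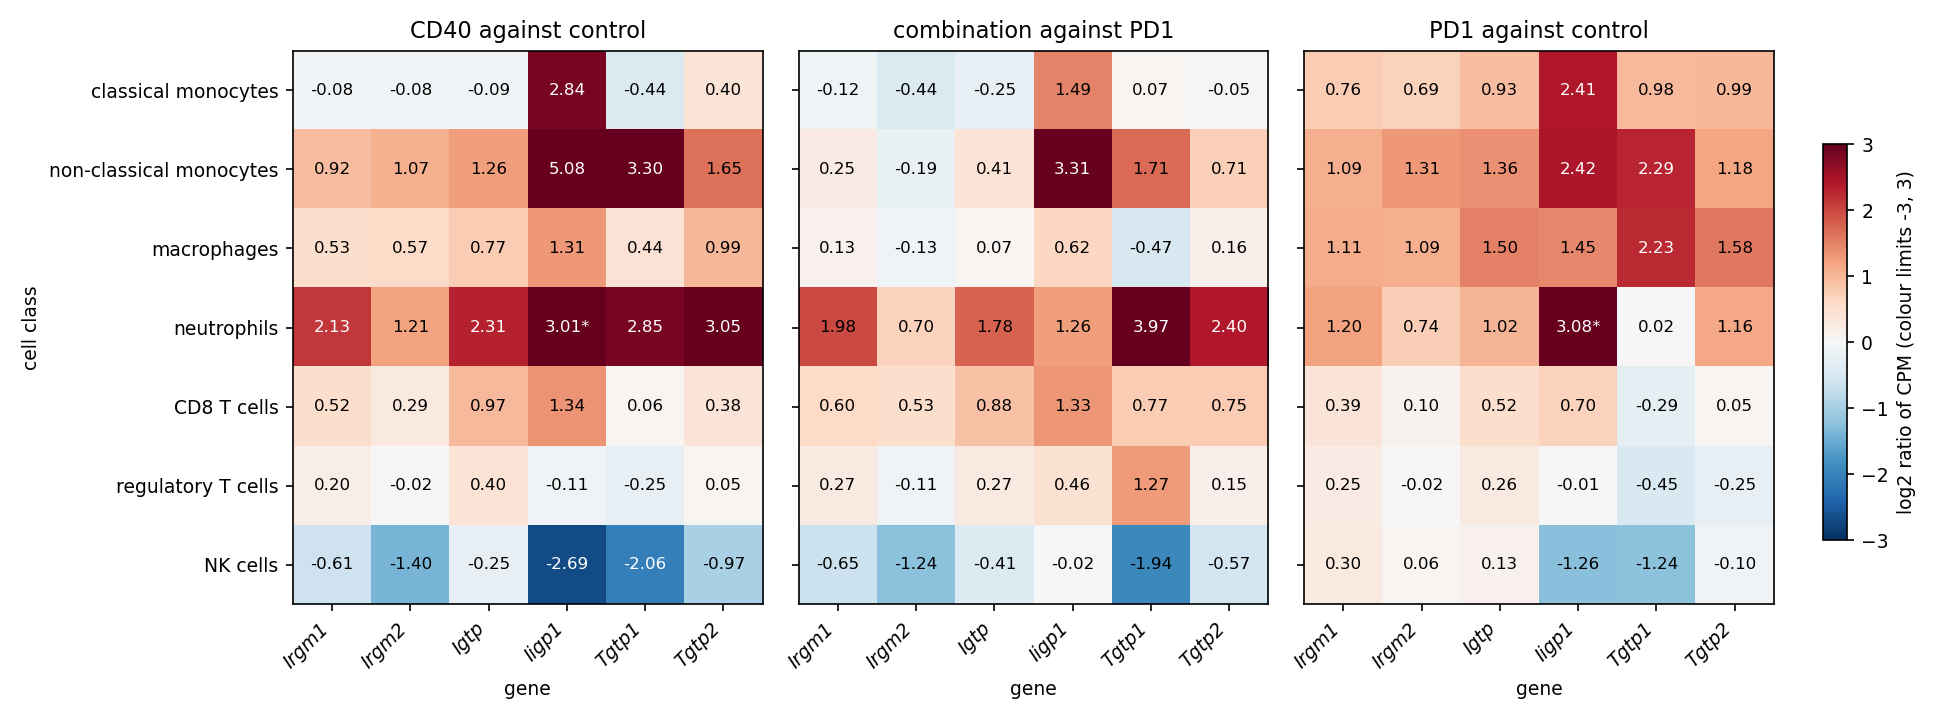
Log2 ratio of CPM for each IRG gene (columns) in 7 cell classes (rows), for CD40 against control, combination against PD1 and PD1 against control. Red is higher and blue lower in the first-named library, and an asterisk marks a ratio in which a count under 3 UMIs was set to 3. In classical monocytes the Iigp1 cells read 2.84 and 1.49 in the first 2 panels, where the 5 other genes read -0.44 to 0.40.

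**Figure D3:**
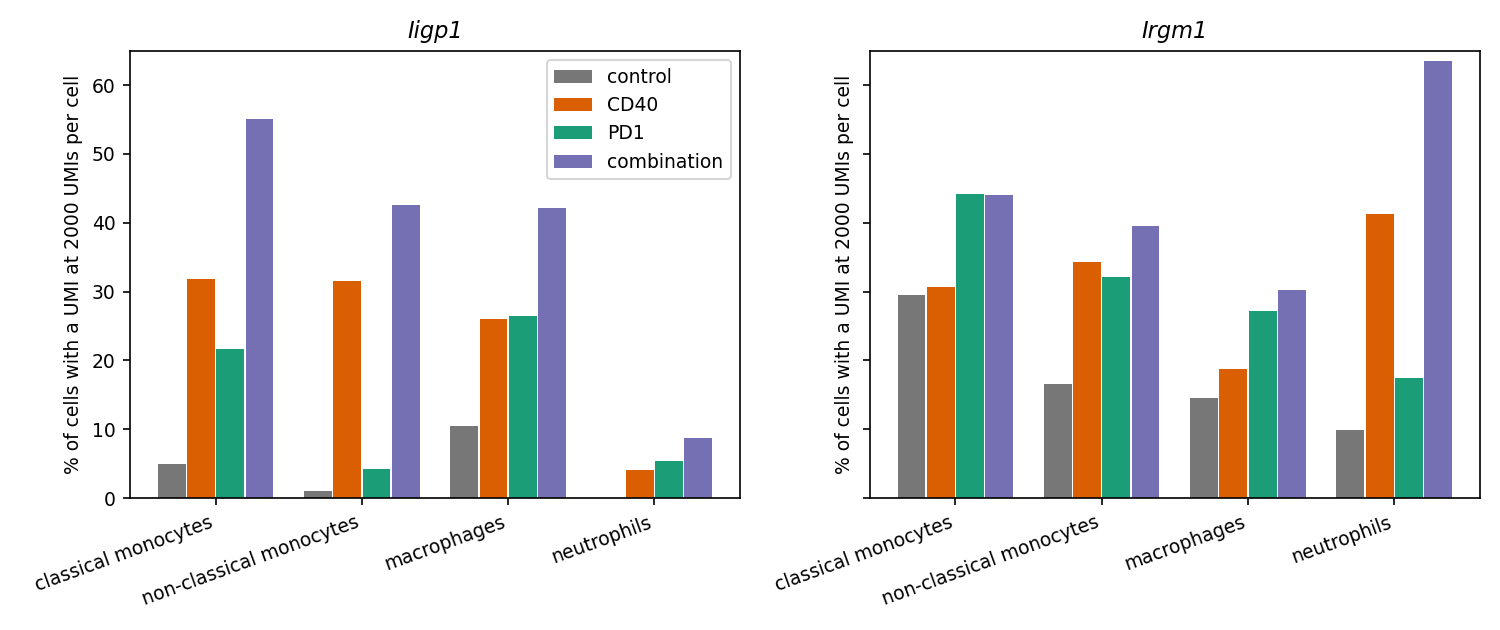
Percentage of cells with at least 1 UMI of Iigp1 (left) or Irgm1 (right) in 4 myeloid classes, after thinning every cell to 2000 UMIs, with 1 bar per library. In non-classical monocytes the Iigp1 bars stand at 1.09, 31.6, 4.26 and 42.6%, whereas the Irgm1 bars stand at 16.6, 34.3, 32.1 and 39.6%.

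The genes that neighbour Iigp1 on chromosome 18 were also higher with CD40 antibody in monocytes. Gm4951, F830016B08Rik and Gm4841 encode further IRG proteins and lie between 60212080 and 60303016. In classical monocytes Gm4951 had 8.66 CPM in control, 130.0 in CD40, 39.6 in PD1 and 204 in combination cells. In non-classical monocytes it had no UMI in control and 168, 10.7 and 218 CPM in CD40, PD1 and combination cells. Taking 3 UMIs as the floor of the control, the CD40 library was 102-fold higher (log2 6.68, lower limit 6.37). F830016B08Rik (log2 5.36 and 2.68) and Gm4841 (4.33 and 2.53) were also higher with CD40 antibody in classical monocytes, without and with PD1 antibody. PD1 against control was also higher in these cells, by log2 2.19 for Gm4951, 3.92 for F830016B08Rik and 3.24 for Gm4841. F830016B08Rik and Gm4841 were counted far less than Gm4951, with 6 and 4 UMIs in the control. Neither Iigp1 nor Gm4951 had a 90-base stretch in common with another gene.

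On chromosome 11, the listed IRG genes Gm12185, Gm5431, 9930111J21Rik1 and 9930111J21Rik2 had log2 ratios of -0.19, -0.44, -0.27 and -0.19 for CD40 against control in classical monocytes. Ifi47, another IRG gene there, was added after its values were seen and had 0.11. In non-classical monocytes the same ratios were 0.63, 0.90, 0.40 and 0.54, and 1.47 for Ifi47, so that there the chromosome 11 genes were higher with CD40 antibody too, by less than Gm4951. Over 16 profiles (4 phagocyte subclasses by 4 libraries), Pearson's r of log2(CPM + 5) was 0.97 between Iigp1 and Gm4951 and 0.98 between Irgm1 and Igtp. Between Iigp1 and the members of chromosome 11 it was 0.45 (Irgm1), 0.15 (Irgm2), 0.56 (Igtp), 0.59 (Tgtp1) and 0.66 (Tgtp2). The 16 profiles share 4 libraries and are a description only. Beside the members, 9 listed IRG genes had a row under the listed symbol. The distant members Irgc1 and Irgq, on chromosome 7, had 4.23 to 6.06 and 2.98 to 3.49 CPM in phagocytes.

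**Figure D4:**
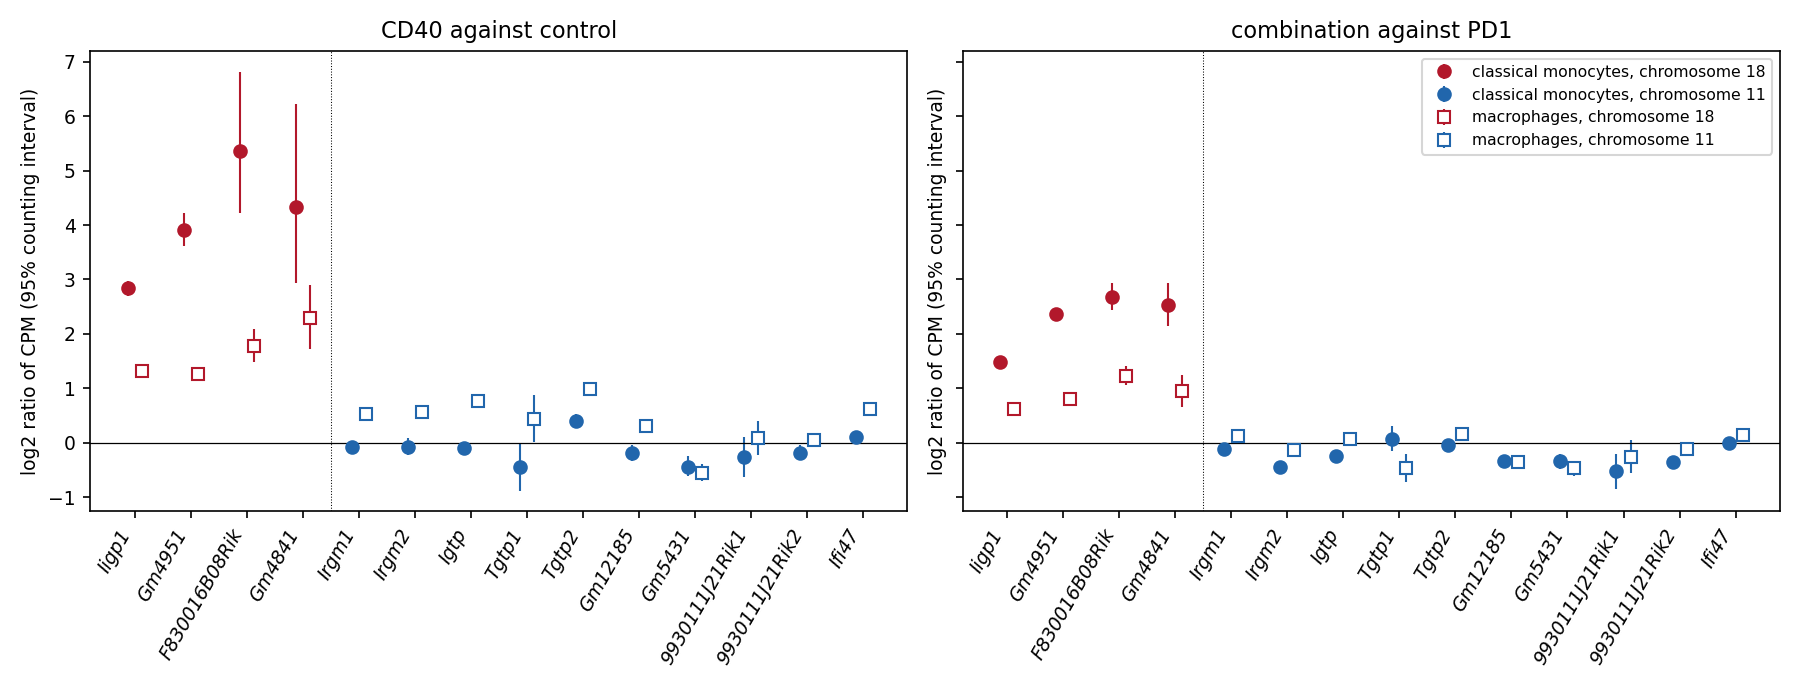
Log2 ratio of CPM with its 95% counting interval for 14 IRG genes, those of chromosome 18 in red and those of chromosome 11 in blue, in classical monocytes (filled circles) and macrophages (open squares). In classical monocytes the 4 red genes lie at 2.84 to 5.36 for CD40 against control, and the 10 blue genes between -0.44 and 0.40.

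Irgm1 was higher in combination neutrophils than in any other class and library, and all 6 genes were higher with CD40 antibody. There were 186, 421, 156 and 985 neutrophils, and they were shallow, with a median of 2128.5, 3917, 2373.5 and 4543 UMIs. Irgm1 had 92.9 CPM in control, 407 in CD40, 214 in PD1 and 847 in combination cells, from 49, 929, 111 and 4714 UMIs. Its log2 ratio was 2.13 (1.71 to 2.58) for CD40 against control and 1.98 (1.71 to 2.27) for combination against PD1. Igtp had 55, 273, 112 and 385 CPM, and Irgm2 58.8, 136, 98.4 and 159.7 CPM. For each of these regulators both libraries with CD40 antibody stood above both libraries without it.

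Of the effectors, Iigp1 had no UMI in the 186 control neutrophils (upper limit 7.0 CPM, where 3 UMIs make 5.69 CPM). It had 46.0, 48.2 and 115 CPM in the CD40, PD1 and combination libraries. Against a floor of 3 UMIs the CD40 library was 8.08-fold higher (log2 3.01, lower limit 2.69). Tgtp2 had 9.48, 78.8, 21.2 and 112 CPM, and Tgtp1 5.69, 41.2, 5.79 and 90.5, from 3, 94, 3 and 504 UMIs. Here 6 of 6 members were called higher in CD40 against control, against 16.2% of 7772 genes, and 6 of 6 in combination against PD1, against 9.31% of 7774 genes, while 37.3% were called lower. For PD1 against control 5 of 6 were called, against 14.4% of genes, with Tgtp2 resting on 11 and 5 UMIs. With at most 5% mitochondrial UMIs and at least 1000 genes per cell, the summed ratio of PD1 against control went from 1.17 to 0.54, under 1.5-fold, and Irgm1 (0.34), Igtp (0.51) and Tgtp2 (0.49) were no longer past it. The median of all genes lay at -0.39 in combination against PD1, so that ratios relative to it are larger by that amount. With median-of-ratios size factors all 6 were also higher, by 1.10 (Irgm2) to 4.37 (Tgtp1).

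Beside these, 19 of 19 interferon gamma-led genes were called higher in CD40 against control neutrophils (median 2.05, Gbp4 highest at 5.18), and 11 of 16 type I interferon-led genes (median 0.81). Summed markers of mononuclear phagocytes were 4889.3, 6565.4, 6215.9 and 3650.0 CPM in neutrophils, with all 12 detected, so that they were higher in CD40 than in control and lower in combination than in PD1. NK cell markers summed to 5.69, 18.8, 3.86 and 26.8 CPM, with 2, 5, 1 and 7 of 7 detected, and were higher in both libraries with CD40 antibody. The part of either in the result was not tested. C1qa was at 12.1 CPM in neutrophils against 2918.2 in macrophages, a contrast partly fixed in advance because both gates use C1qa. The phagocyte list also holds Lyz2 and Ly6c2, which stood at 2941.1 and 738.7 CPM in neutrophils over all libraries. With the neutrophil threshold doubled and no macrophage marker UMI allowed, the summed log2 ratio of CD40 against control was 2.66 in place of 2.14. Mitochondrial UMIs had a median of 0.445% in the control and 1.43% in the combination neutrophils, and the part of this in the result was not tested. With at most 5% mitochondrial UMIs and at least 1000 genes per cell the summed ratio of combination against PD1 was 2.25 in place of 1.77.

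NK cells went the other way as a share of their RNA. There were 435, 347, 575 and 444 NK cells. Irgm2 had 32.1 CPM in control, 12.2 in CD40, 33.4 in PD1 and 14.2 in combination cells, with log2 ratios of -1.40 (-1.91 to -0.90) and -1.24 (-1.65 to -0.83) for CD40 against control and combination against PD1. Irgm1 had 55.3, 36.1, 67.9 and 43.1 CPM, and Tgtp2 40.3, 20.6, 37.6 and 25.3. In these 3 genes both libraries with CD40 antibody stood below both without it. Igtp (62.4, 52.5, 68.1 and 51.3 CPM) had ratios of -0.25 and -0.41, neither of them called. Iigp1 had 17.1, 2.66, 7.13 and 7.02 CPM, lowest in the CD40 library. Tgtp1 did not reach 50 UMIs. Of the 5 others, 4 were called lower in CD40 against control, against 17.2% of 10217 genes, and 2 in combination against PD1 (Irgm1 and Irgm2), against 11.6% of 10219 genes. In PD1 against control only Iigp1 was called lower, 1 of 5 against 6.41% of genes.

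The direction in NK cells depended on the scale. The median depth of NK cells was 5379 and 6172 UMIs in control and PD1, and 11371 and 11422 in CD40 and combination. Counted per cell, Irgm1 had 0.356, 0.470, 0.480 and 0.568 UMIs, which is higher with CD40 antibody (log2 0.40 and 0.24), and Tgtp2 had 0.260, 0.268, 0.266 and 0.333. Igtp had 0.402, 0.683, 0.482 and 0.676 UMIs per cell, also higher with CD40 antibody (log2 0.76 and 0.49). Iigp1 was lower per cell in CD40 against control (log2 -1.67) and higher in combination against PD1 (0.87). Irgm2 was lower on both scales, with 0.207, 0.159, 0.237 and 0.187 UMIs per cell (log2 -0.38 and -0.34). Cells with an Irgm2 UMI were 15.2, 13, 19.1 and 14.6%, and 6.20, 2.62, 6.94 and 2.91% after thinning to 2000 UMIs. More RNA per cell and deeper capture cannot be told apart here.

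Other genes moved in NK cells too, as a share of their RNA. Of 15 type I interferon-led genes, 13 were called lower in CD40 against control and none higher (median -1.71), while the interferon gamma-led list had 6 of 18 called lower and none higher (median -0.23). Ifng itself, the gene of interferon gamma, was higher in NK cells with CD40 antibody (41.7, 116, 73.3 and 287 CPM). As a share of RNA, the receptor gene Ifngr1 was lower (1297, 738, 1540 and 921 CPM). Counts per cell are not given for the genes of this paragraph. NK cells were deeper with CD40 antibody, so their directions per cell may differ. Dissociation stress genes had a median of -0.83 in CD40 against control, with 5 of 9 called lower and 1 higher, and their part in the result was not tested.

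In CD8 T cells, Igtp and Iigp1 were the members that differed most. Igtp had 55.6 CPM in control, 109 in CD40, 79.5 in PD1 and 146 in combination cells, and its log2 ratios were 0.97 (0.83 to 1.10) for CD40 against control and 0.88 (0.80 to 0.96) for combination against PD1. Iigp1 had 7.05, 17.8, 11.5 and 28.8 CPM, with ratios of 1.34 (0.97 to 1.72) and 1.33 (1.12 to 1.54). For both genes the 2 libraries with CD40 antibody stood above the 2 without. In CD40 against control 2 of 6 members were called higher, against 7.34% of 12881 genes. In combination against PD1 5 of 6 were called, all but Irgm2 (0.53), against 8.63% of 12880 genes. In PD1 against control only Iigp1 was called, 1 of 6 against 5.47% of genes. Ifng was 2.40-fold higher in PD1 than in control CD8 T cells (268 CPM in control and 644 in PD1). It was also higher in CD40 than in control (log2 1.0), and its ratio for combination against PD1 was -0.25. Phagocyte markers summed to 530 CPM in control, 1017 in CD40, 674 in PD1 and 1170 in combination CD8 T cells, with all 12 detected. That list holds Ly6c2, which stood at 843.6 CPM in CD8 T cells over all libraries, against 30.7 for Lyz2 and 4.71 for C1qa. By library, C1qa had 4.8, 6.48, 5.36 and 3.45 CPM. The part of phagocyte RNA in the Iigp1 difference was not tested. Iigp1 UMIs were in 5.35, 14.8, 9.47 and 20.5% of CD8 T cells, and in 2.15, 4.37, 2.77 and 6.68% after thinning to 2000 UMIs.

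Regulatory T cells, which restrain other T cells and carry Foxp3, held the family high without any antibody. Their Igtp level was 334 CPM in control, 441 in CD40, 402 in PD1 and 484 in combination cells, the highest of the 5 compared classes in each library. Iigp1 stood at 208, 193, 207 and 284 CPM, and Irgm1 at 102, 117, 121 and 146. No member was called in CD40 against control or in PD1 against control, where 7.13% of 9917 and 3.13% of 9918 genes were called higher and 13.1 and 4.57% lower. Only Tgtp1 was called in combination against PD1, 1 of 6 against 5.36% of genes, from 31 and 34 UMIs. The intervals of Iigp1 for CD40 against control (-0.34 to 0.11) and PD1 against control (-0.15 to 0.13) exclude a 1.5-fold difference by counting error alone. Only 106 and 137 regulatory T cells were present in the CD40 and combination libraries, against 417 and 393 in the others.

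The remaining classes had too few cells in at least 1 library and are given as levels. Conventional CD4 T cells (58 to 176 cells) and gamma-delta T cells (30 to 75) had Igtp at 212 to 314 and 208 to 328 CPM. Regulatory T cells were above both, at 334 to 484 CPM. In the control library the 6 genes summed to 617.5 CPM in conventional CD4, 814.0 in gamma-delta and 821.4 in regulatory T cells. Conventional dendritic cells, which take up and present antigen, could be read only in the control and PD1 libraries, since 1 to 4 cells of each kind were found with CD40 antibody. In cDC1 cells Iigp1 was 83.8 CPM in the control and 322 in the PD1 library, and in cDC2 cells 63.6 and 177. Plasmacytoid dendritic cells, the main makers of type I interferon, had Iigp1 at 98.6, 177, 327 and 344 CPM from 49, 20, 68 and 9 cells. B cells had the lowest control Igtp of the leukocyte classes, 16.5 CPM, with 61.5, 62.9 and 100.1 in the other libraries. The few melanoma cells had the 6 genes at 28.9 CPM in control, 148 in CD40, 618 in PD1 and 231 in combination cells, from 12, 81, 445 and 24 UMIs. The melanoma gate did not leave out cells with phagocyte genes. Over all libraries these cells had Lyz2 at 450.6 and C1qa at 117.0 CPM, and the part of phagocyte RNA in their values was not tested.

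Over 43 profiles of class and library with at least 20 cells, genes whose pattern was most like that of the summed members included Parp9 (Pearson's r 0.81), Parp14 (0.78), Zbp1 (0.77) and Gm12185 (0.76), among 6580 genes. The profiles share 4 libraries and differ in depth. Among the members, r with the sum ranged from 0.67 (Tgtp1) to 0.85 (Irgm1).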

How the data were processed

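Per the labels' protocols, live CD45+ cells of 6 pooled mice per group were sorted and made into 10x Genomics 5′ libraries. The authors deposited raw UMI counts per gene and barcode. Per the submitters' processing notes they used Cell Ranger 7.0.0 and GRCm38, while for the annotation and for intronic and multi-mapped reads the treatment was not given in the sources used here.

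Barcodes needed 300 genes or more and no more than 10% UMIs from 13 mitochondrial genes, and cells with a Scrublet score (scanpy 1.11.5) of at least 0.25 were removed (111, 149, 257 and 239). This left 7736, 7757, 9681 and 9481 cells in control, CD40, PD1 and combination, with a median of 11390.5, 14663, 11727 and 13141 UMIs. Cells were gated by marker UMIs per 10000. The marker lists were fixed without the thresholds, which were set after seeing the data. Macrophages, classical and non-classical monocytes are gates within mononuclear phagocytes, and 600, 449, 801 and 432 of these fell in none of the 3. UMIs were summed per class and library. CPM have exact Poisson intervals, log2 ratios exact conditional binomial intervals and shares exact Clopper-Pearson intervals. PCR duplicates are collapsed by UMI, and all cover counting error only. Gene positions and transcripts came from the GENCODE vM21 reference. Ratios against fewer than 3 UMIs used 3. The calculation was run on simulated Poisson counts, which hold counting error only and so say nothing about differences between mice. All 6 members are named in every compared class, list genes as the highest or lowest of their list or by role, and like genes by rank of r (mean CPM of at least 20), and 1 gene that this rule names is not reported here. The members and lists were chosen with earlier results of these data known. Alternatives were doublets kept, cells weighted equally, size factors, stricter gates, stricter cell filters, other folds and minimums, other thinning and, added after seeing the data, UMIs per cell.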

Additional observations from a re-analysis of the deposited data

Results flagged for a closer look

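The sum of the 6 genes moved in opposite directions between cell classes under the same comparison. For CD40 against control the log2 ratio of CPM was 0.88 in mononuclear phagocytes, 2.14 in neutrophils and 0.69 in CD8 T cells, and -0.76 in NK cells. For combination against PD1 it was 1.77 in neutrophils and 0.79 in CD8 T cells, and -0.61 in NK cells. Each class has 1 library per group, so the difference between classes was not tested, and the NK values have the opposite sign when counted per cell.

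Cells that passed no gate, which enter no comparison, held the 6 genes at 379.4 CPM in control, and above that at 504.5 in CD40, 791.2 in PD1 and 939.1 in combination. Their makeup was not examined.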

How the results depend on the processing

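No paired analysis was possible because each group is 1 library. For the summed members, 8 to 9 of the 9 log2 ratios past 1.5-fold stayed past it with doublets kept, size factors, stricter gates or stricter cell filters, and 7 of 9 with cells weighted equally or counted per cell. Stricter gates gave 0.95, 2.66, -0.93 and 0.00 for CD40 against control in mononuclear phagocytes, neutrophils, NK cells and regulatory T cells, 0.50, 1.97 and -0.76 for combination against PD1 in the first 3, and 1.28 and 0.19 for PD1 against control in phagocytes and regulatory T cells. Equal weight gave 2.52, 0.42 and -0.15 for CD40 against control in neutrophils, CD8 T cells and regulatory T cells, 2.00 and 0.59 for combination against PD1 in neutrophils and CD8 T cells, and 1.25 and 0.03 for PD1 against control in phagocytes and regulatory T cells. Size factors gave 2.17 (neutrophils, combination against PD1) and 1.39 (phagocytes, PD1 against control). Stricter cell filters gave 2.25 in neutrophils for combination against PD1 and 0.54 for PD1 against control. Counts per cell gave 1.33 and 3.08 for CD40 against control in phagocytes and neutrophils. For combination against PD1 they gave 0.87, 2.54, 0.61 and 0.41 in phagocytes, neutrophils, CD8 T cells and regulatory T cells. For PD1 against control they gave 1.15, 0.69 and 0.01 in phagocytes, CD8 T cells and regulatory T cells. In NK cells they reversed the sum (0.25 for CD40 against control, 0.29 for combination against PD1), Irgm1 (0.40 and 0.24) and, for CD40 against control, Tgtp2 (0.05). Ratios under 1.5-fold in CPM that also changed sign there were Igtp (0.76 and 0.49) and, for combination against PD1, Tgtp2 (0.33) and Iigp1 (0.87). Equal weight reversed Tgtp1 in CD8 T cells for combination against PD1 (-0.15). Apart from the per-cell scale in NK cells, the cause of these shifts was not tested. A 2-fold limit moved all 20 counts of called genes by over 1.5 times, for example 1003 to 483 higher genes in CD40 against control phagocytes, and a minimum of 10 UMIs moved 12 of 20 (1003 to 1571). Stricter gates gave no value for Tgtp1 in neutrophils for PD1 against control, where neither library had a UMI. Counts per cell were added after seeing the data. Depth limits Tgtp1 in all lymphocytes and every gene in control and PD1 neutrophils.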
